A study of Mus musculus with 18 samples.

Results

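Clotting and clot breakdown were followed through 9 genes of coagulation and fibrinolysis (F3, F10, F13a1, Thbd, Procr, Plat, Plau, Plaur and Serping1) in hearts of mice with a TNF-alpha transgene. The genes were chosen by symbol and matched to the platform annotation of the Affymetrix U74Av2 array. Of the 9 genes, 8 had at least 1 probe set and together held 10 probe sets, among 12422 probe sets and 8251 genes with a probe set of a single symbol in the whole series. No probe set carries the symbol F13a1 in that annotation, so this gene, the subunit of factor XIII that cross-links fibrin, was not analysed here. The tested groups were hearts of TNF-alpha transgenic mice of 3 weeks (3 female and 3 male arrays), of 13 weeks (3 male arrays) and of 40 weeks (3 female arrays), and the comparison hearts came from FVB mice of 3 weeks (2 distinct female and 3 male arrays). Per the labels the transgene is restricted to the heart, and the study looked at compensated hypertrophy and at dilated failure. The labels name neither the promoter that drives the transgene nor the background strain of the transgenic mice, and they give no FVB hearts of 13 or 40 weeks.

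Coagulation begins when tissue factor, outside the vessel lumen, meets plasma factor VII, and it runs through factor X to thrombin, which cuts fibrinogen into fibrin. On the endothelium, thrombomodulin turns thrombin towards protein C, which the endothelial protein C receptor presents for activation, and this shuts the cascade down. Fibrin is cleared by plasmin, which tissue-type and urokinase-type plasminogen activators generate, and inflammatory cytokines such as TNF are known to shift this balance in endothelial cells and macrophages.

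Transgenic arrays of 3 weeks carried Tnf signals of 5475.5 to 11342.8, against 12.5 to 124.9 in FVB hearts. FVB female replicates 1 and 2 were deposited with the same value for each probe set and were counted as 1 sample. That array stood apart. It had 7.47% of its probe sets at the floor of 44.9 signal units (the 25th percentile of all values, to which lower values were set), against 23.8% to 28.4% on the other 16 arrays, and its Spearman correlation with them was 0.775 to 0.856. Among FVB arrays with a male label, replicate 1 carried Xist at 1380.6 and replicate 2 at 2705.7, against 5.9 in replicate 3 and at most 34.7 in transgenic males. The Y-linked gene Eif2s3y read 298.7, 67.4 and 544.9 in FVB male replicates 1, 2 and 3, against 347.8 to 484.4 in transgenic males. It read 115.3 on the FVB female array that stood apart and 2.9 to 40.9 on the other female arrays. The labelled sexes are kept below, and results that change without these 3 arrays (the array that stood apart and FVB male replicates 1 and 2, called the 3 doubted arrays) are also given without them. The 3' to 5' ratio of the Actb control, which rises as RNA degrades, averaged 1.26 ± 0.10 (SD, n = 6) in transgenic and 1.71 ± 0.26 (SD, n = 5) in FVB hearts of 3 weeks, and its part in the differences below was not tested.

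Start-site windows are shown for the 4 members that had both a window and a probe set, F10, Procr, Plaur and F3. Thbd, Plat, Plau and Serping1 had no window, so the 4 were not chosen by their difference between genotypes. RefSeq windows on GRCm38.p6 run from 250 bases before the start of the gene to 50 bases after it, all 4 on the plus strand: F10 at chr8:13037058-13037357, Procr at chr2:155750967-155751266, Plaur at chr7:24462233-24462532 and F3 at chr3:121723287-121723586. Capitals mark matches to the AP-1 motif (TGACTCA or TGAGTCA, which are each other's reverse complement), the GC box (GGGCGG or CCGCCC) or the TATA motif (TATAAA or TTTATA), with both strands searched.
F10: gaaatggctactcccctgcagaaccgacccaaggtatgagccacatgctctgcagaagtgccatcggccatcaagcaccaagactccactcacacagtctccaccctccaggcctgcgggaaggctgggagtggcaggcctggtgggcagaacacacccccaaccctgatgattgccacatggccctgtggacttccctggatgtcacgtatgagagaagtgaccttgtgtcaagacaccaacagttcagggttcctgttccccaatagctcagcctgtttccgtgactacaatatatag
Procr: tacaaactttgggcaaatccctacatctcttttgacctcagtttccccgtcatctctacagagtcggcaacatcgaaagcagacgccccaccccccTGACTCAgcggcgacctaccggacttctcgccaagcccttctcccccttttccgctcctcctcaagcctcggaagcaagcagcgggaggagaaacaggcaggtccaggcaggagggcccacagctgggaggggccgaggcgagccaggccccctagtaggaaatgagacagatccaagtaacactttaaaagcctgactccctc
Plaur: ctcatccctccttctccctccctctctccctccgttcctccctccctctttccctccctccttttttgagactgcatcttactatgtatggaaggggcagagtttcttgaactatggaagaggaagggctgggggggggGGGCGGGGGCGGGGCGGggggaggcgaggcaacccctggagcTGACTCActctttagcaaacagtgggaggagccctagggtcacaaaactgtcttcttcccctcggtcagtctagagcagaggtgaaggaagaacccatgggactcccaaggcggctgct
F3: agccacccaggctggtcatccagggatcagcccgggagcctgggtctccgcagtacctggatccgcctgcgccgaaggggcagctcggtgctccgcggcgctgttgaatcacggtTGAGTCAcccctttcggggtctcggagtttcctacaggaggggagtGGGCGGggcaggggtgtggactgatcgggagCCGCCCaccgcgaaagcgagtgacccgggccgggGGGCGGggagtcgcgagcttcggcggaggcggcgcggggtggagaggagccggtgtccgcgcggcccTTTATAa
The AP-1 motif occurred once in Procr (154 bases before the start), once in Plaur (69 bases before it) and once in F3 (135 bases before it), and 5.2% of 32817 RefSeq windows of this length hold it. Plaur and F3 each held 3 GC boxes, a motif found in 35.6% of windows, and those of Plaur lay side by side, with an overlap of 1 base between 2 of them. F3 held 1 TATA match, at base 44 of the transcribed side, and 13.6% of windows hold one. For NF-kappaB the pattern searched was GGG, a purine, any 2 bases, 2 pyrimidines and CC, on either strand. It was found in 8.46% of windows and had no match in any of the 4. Sites that depart from this pattern were not searched for, so their absence is not shown. F10 held none of the motifs searched. These matches describe letters only.

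In transgenic hearts of 3 weeks, 5 of the 7 members tested were higher than in FVB hearts (F10, Procr, Plaur, Plat and Serping1), F3 was lower and Thbd did not pass the test on its representative probe set. The background is high: 46.6% of the 7453 probe sets tested were called at an adjusted p under 0.05, 24.7% higher and 21.9% lower. The median log2 difference of the 7 was 0.91, against -0.01 over all probe sets. F10 and Plaur passed the filter on dim probe sets (the top 60% by mean log2 signal) narrowly, at the 41.0 and 40.7 percentiles, and their FVB arrays lay at or near the floor. They were therefore tested because the transgenic arrays are high, and the count is a description of the members that passed. Plau and a second F10 probe set did not pass.

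F10 encodes factor X, the protease that, once activated, turns prothrombin into thrombin. Its signal ran from 185.6 to 310.8 with a median of 252.2 on the 6 transgenic arrays, against 78.9 and 17 in FVB females and 22.2, 37.2 and 10.4 in FVB males. Every transgenic array lay above every FVB array, and the highest FVB value came from the array that stood apart. On the log2 scale F10 was higher by 2.28 (SE 0.18, limma adjusted p = 4.64e-08), a lower limit because 4 of the 5 FVB arrays were at the floor. The floor left no spread among the 3 FVB male arrays, so the SE is understated and the adjusted p depends on the floor. The same holds for F10 in the comparisons between ages, which share the estimate of spread. The second F10 probe set was dimmer, at 53.9 to 160 with a median of 97.2 on transgenic arrays, against 127 and 26.5 in FVB females and 28.1, 17.3 and 20.1 in FVB males. Its groups overlapped through that one FVB array, and its log2 difference of 0.80 had an exact permutation p = 0.0584 (two-sided, 462 regroupings, smallest possible p 0.00433).

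F3 encodes tissue factor, the membrane receptor of factor VII that starts coagulation and that heart muscle is known to carry. Its signal was 165.1 to 285 with a median of 189.2 on transgenic arrays, against 339 and 286 in FVB females and 230.8, 269.4 and 388.5 in FVB males. The groups overlapped only through transgenic female replicate 3, at 285. F3 thus differed by -0.59 on the log2 scale (SE 0.18, limma adjusted p = 0.0131), with a mean signal of 202 ± 43.5 (SD, n = 6) in transgenic and 303 ± 61.7 (SD, n = 5) in FVB hearts. The call ended when arrays were weighted by quality (-0.53, limma adjusted p = 0.118).

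**Figure D1:**
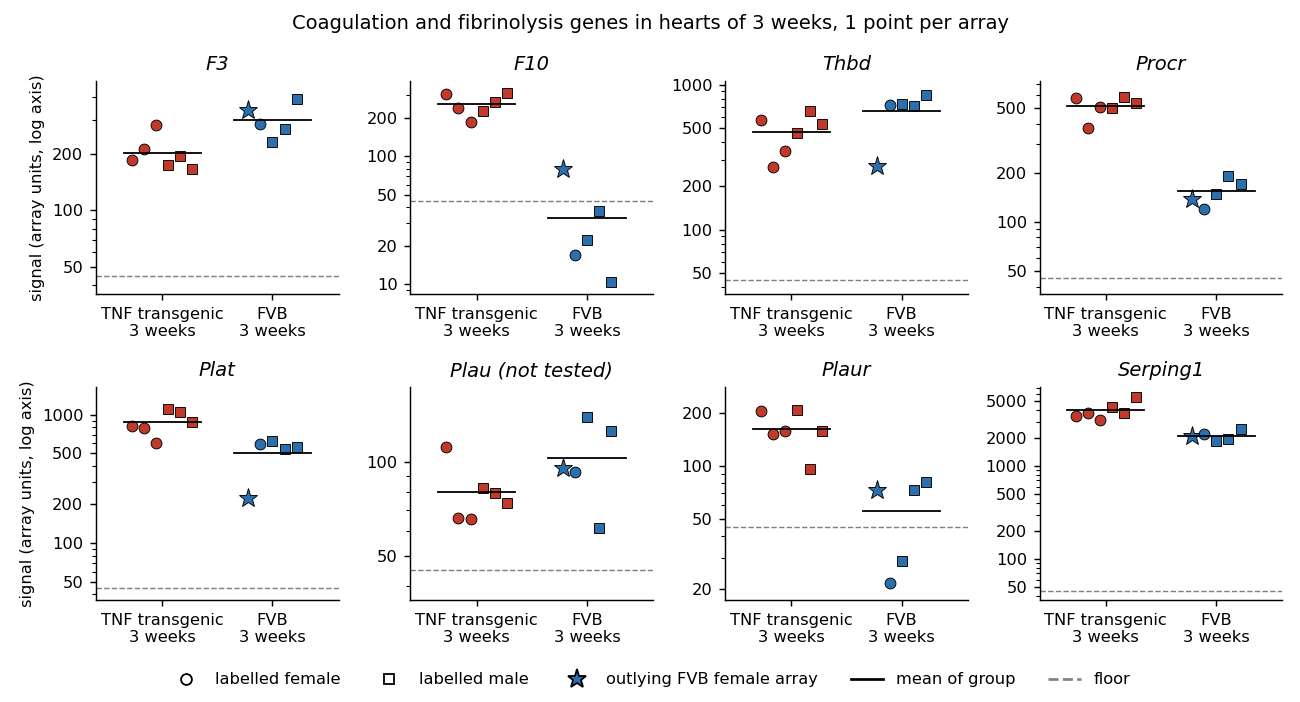
Signal of the 8 members with a probe set on each array of 3 weeks (log axis, array units), with TNF transgenic arrays on the left and FVB arrays on the right, circles for arrays labelled female, squares for male, a star for the FVB female array that stood apart, and a line at the mean of each group. F10, Procr, Plaur and Serping1 do not overlap between genotypes, while the star is the highest FVB value for F10 (78.9) and the lowest for Thbd (274.4) and Plat (223).

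Both anticoagulant receptors of the endothelium were measured. Procr encodes the endothelial protein C receptor. Its signal was 376.7 to 583.3 with a median of 518.5 on transgenic arrays, against 137.9 and 118.9 in FVB females and 148.3, 191.9 and 170 in FVB males. The lowest transgenic array, female replicate 2 at 376.7, was still above the highest FVB array. Procr was 3.44-fold higher, a log2 difference of 1.78 (SE 0.15, limma adjusted p = 8.08e-08).

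Thbd encodes thrombomodulin, the thrombin-binding partner of that receptor. On its representative probe set the signal was 268.5 to 657 with a median of 496.9 in transgenic hearts, against 274.4 and 720.1 in FVB females and 740.5, 717.2 and 846.9 in FVB males. All transgenic arrays lay below 4 of the 5 FVB arrays, and the exception was the array that stood apart. With all arrays the log2 difference was -0.37 (SE 0.25, 95% interval -0.90 to 0.17), which limma did not call (adjusted p = 0.247). Without that array it was -0.71 (limma adjusted p = 0.0245), and without it and both Xist-carrying FVB male arrays -0.79 (limma adjusted p = 0.0479). A second Thbd probe set, of a class that can cross-hybridise within a sequence family, read 198.2 to 348.3 with a median of 306.8 in transgenic hearts, against 901.9 and 482.5 in FVB females and 481.2, 356.4 and 454.5 in FVB males. Its groups did not overlap, and it differed by -0.89 on the log2 scale (SE 0.20, limma adjusted p = 0.00221). The array that stood apart thus held the lowest FVB value on one Thbd probe set and the highest on the other.

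Fibrinolysis was represented by its 2 plasminogen activators and the urokinase receptor. Plat encodes tissue-type plasminogen activator, which works on fibrin. Its signal was 607.2 to 1098.1 with a median of 847.7 on transgenic arrays, against 223 and 587.2 in FVB females and 625.3, 537 and 559.5 in FVB males. Only transgenic female replicate 3, at 607.2, lay within the FVB range. Plat was higher by a log2 difference of 0.91 (SE 0.22, limma adjusted p = 0.00383). It was 0.56 without the array that stood apart (limma adjusted p = 0.0286) and 0.58 without the 3 doubted arrays, where the call ended (limma adjusted p = 0.0703).

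Plaur encodes the receptor that holds urokinase on the cell surface, on leukocytes among others. Its signal was 96 to 207.9 with a median of 157.7 on transgenic arrays, against 73 and 21.6 in FVB females and 28.8, 73.3 and 81.4 in FVB males. The groups did not overlap, with a log2 difference of 1.38 (SE 0.23, limma adjusted p = 0.000165). This is a lower limit, since 2 FVB arrays were at the floor, which also narrows their spread and so the SE. Plau, the urokinase-type activator itself, was dim in both genotypes, at 65.7 to 111.7 with a median of 76.6 in transgenic hearts, against 95.3 and 92.9 in FVB females and 138.8, 61.5 and 125.2 in FVB males. Its groups overlapped over most of their range, with a log2 difference of -0.33 (exact permutation p = 0.169, two-sided).

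Serping1 encodes the C1 inhibitor, a serpin that blocks the complement proteases C1r and C1s as well as factor XIIa and plasma kallikrein of the contact system. Its signal was 3161.6 to 5478.2 with a median of 3717 on transgenic arrays, against 2110.9 and 2217.9 in FVB females and 1843.2, 1973.6 and 2476.6 in FVB males. The groups did not overlap, with a log2 difference of 0.88 (SE 0.16, limma adjusted p = 0.000448). With F10, Procr and Plaur this makes 4 of the 7 genes tested whose transgenic arrays all lay above all FVB arrays. Of all probe sets tested 14.5% did so. F10 and Plaur were tested because their transgenic arrays are high, so that share cannot be used to judge the count. The second Thbd probe set lay wholly below, as 9.14% of probe sets did.

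Some lists of cell markers also differed between the genotypes, while others were mixed. In 3-week hearts the summed signal of 9 macrophage markers was 22802 to 28925 on transgenic and 3200 to 4651 on FVB arrays, and of the 8 tested 6 were higher and Fcgr1 was lower. The Fcgr1 call ended without the array that stood apart (-0.43, limma adjusted p = 0.0860) and held without the 3 doubted arrays (-0.59, limma adjusted p = 0.0396). All 7 cardiomyocyte markers tested were lower, with a summed signal of 75422 to 145467 on transgenic and 141794 to 232709 on FVB arrays. Of 9 endothelial markers 1 was higher (Cd34) and 3 were lower (Pecam1, Tek and Flt1), and their sums overlapped at 12941 to 15039 on transgenic and 9560 to 18081 on FVB arrays. Without the array that stood apart Cd34 (0.49) and Pecam1 (-0.96) were not called, while Tek and Flt1 were. Without the 3 doubted arrays Cd34 was called again (0.73). Of 4 smooth muscle markers, summing to 6002 to 8651 on transgenic and 2613 to 4617 on FVB arrays, 3 were tested, with Acta2 and Tagln higher and Myh11 lower, the last not without the array that stood apart (-0.61, limma adjusted p = 0.0521). Of 7 fibroblast markers 2 were higher (Col1a1 and Col1a2) and 2 were lower (Dcn and Tcf21), and their sums overlapped at 26118 to 35128 on transgenic and 25142 to 42159 on FVB arrays. Without the array that stood apart Col1a1 was not called (0.31). Without the 3 doubted arrays Col1a2 was not either (0.54), while Pdgfra was called lower (-0.87). Of 2 erythroid markers Hba-a1 was lower, with sums of 13658 to 24478 on transgenic and 25752 to 39068 on FVB arrays. The other, Alas2, was called lower without the array that stood apart (-0.85) and without the 3 doubted arrays (-0.88). Of 4 neutrophil markers tested S100a8 and S100a9 were higher and Elane was lower. The 6 neutrophil markers on the array had overlapping sums of 973 to 1424 on transgenic and 495 to 1926 on FVB arrays. Of 2 mast cell markers tested 1 was higher and 1 was lower, the latter not called without the array that stood apart. None of the platelet markers was bright enough to be tested. Hepatocyte markers summed to 67.2 to 120.9 on transgenic and 89.5 to 619.8 on FVB arrays, and none of the 6 transgenic arrays had Alb, Apoa1 or Fga above the floor. The part of these markers in the members' differences was not tested, and in whole hearts more or fewer cells of a type cannot be told apart from more or less RNA per cell.

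Within each labelled sex, 5 of 7 members were called. In females F10 (2.01), Procr (1.90), Plaur (1.57), Plat (1.01) and Serping1 (0.66) were higher on the log2 scale, with limma adjusted p-values of 4.76e-05, 1.15e-05, 0.00306, 0.0286 and 0.0460, where 34.7% of probe sets were called. Without the array that stood apart, which leaves 1 FVB female array, Plat (0.32, limma adjusted p = 0.502) and Serping1 (0.63, limma adjusted p = 0.166) were no longer called, and the share of all probe sets called was 19.6%. That share was 9.38% with array weights, where 2 members were called. In females the Serping1 call was lost in 16 of 30 alternatives and the Plat call in 8. In males F10 (2.56), Procr (1.67), Plaur (1.18) and Serping1 (1.10) were higher and F3 (-0.71, limma adjusted p = 0.0351) was lower, where 29.7% of probe sets were called. Without the 3 doubted arrays, which leaves 1 FVB male array, F10, Procr and F3 were called in males, and Plaur (0.85, limma adjusted p = 0.139) and Serping1 (0.85, limma adjusted p = 0.0674) were not, where 24.7% of probe sets were called. The difference between the sexes was called in 0 of the 7 members and in 0 of 7453 probe sets by limma, and no member had an unadjusted p under 0.05, against 1229 probe sets. The count over all probe sets rests on single choices: it was 1492 without FVB female replicate 3, which leaves the array that stood apart as the only FVB female, 171 with both identical columns kept and 92 of 12422 with no filter. In each of these, 0 members were called.

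**Figure D2:**
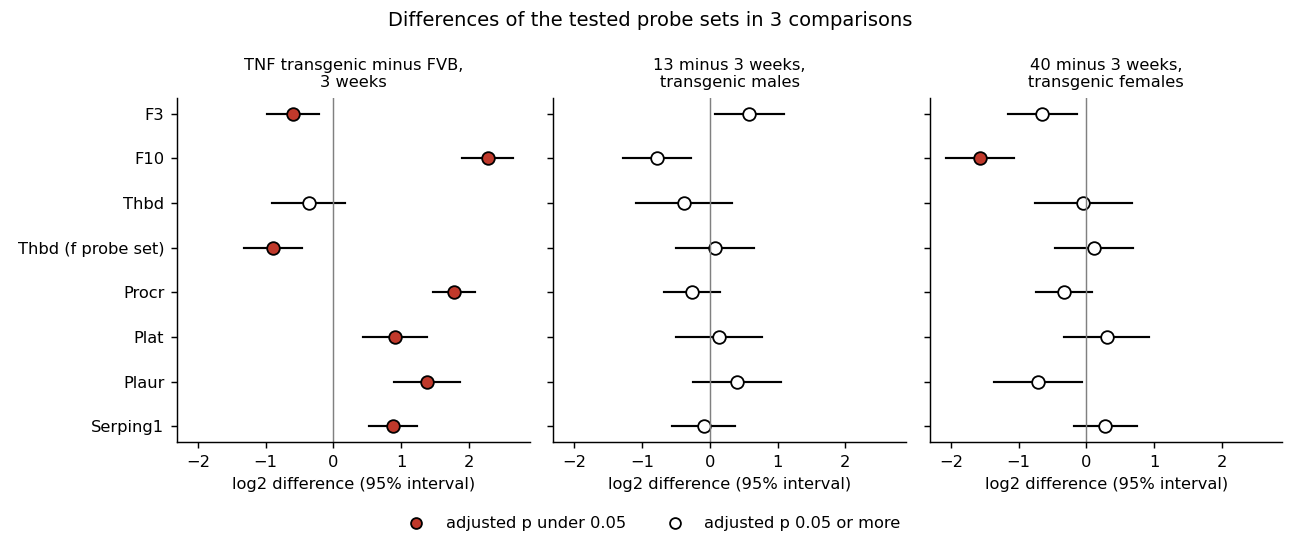
Log2 difference of the 8 tested probe sets with its 95% interval (horizontal axis) in 3 comparisons: TNF transgenic minus FVB hearts of 3 weeks, 13 minus 3 weeks in transgenic males, and 40 minus 3 weeks in transgenic females. Filled points have an adjusted p under 0.05, which holds for 7 probe sets at 3 weeks, for none at 13 weeks and for F10 (-1.57) at 40 weeks.

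The other genes of the pathway came from 5 lists with 52 genes, of which 43 had a probe set and 19 were tested. At 3 weeks 10 were higher and 1 was lower in transgenic hearts. Of all probe sets tested 24.7% were called higher and 21.9% lower. The lower gene, Serpinf2, was not called without the array that stood apart, while Tfpi2 then was, as given below. Of the 15 clotting factors on the array only 3 were tested, and 8 (among them the fibrinogen chains Fga, Fgb and Fgg, and prothrombin, F2) were at the floor on each of the 6 transgenic arrays. Vkorc1, the reductase that recycles vitamin K for clotting factors, was higher by 0.53 (SE 0.15, limma adjusted p = 0.00763), and Vwf and F7 did not pass. Of 4 anticoagulants tested Entpd1, an ectonucleotidase that breaks down ADP and so limits platelet activation, was higher by 0.80 (SE 0.17, limma adjusted p = 0.00150), though not without the 3 doubted arrays (0.47, limma adjusted p = 0.0558). Tfpi2, a Kunitz-type protease inhibitor, passed only when the array that stood apart was left out (1.22, limma adjusted p = 0.00135), against 0.68 with it (limma adjusted p = 0.0953).

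Of 7 fibrinolysis genes 3 were higher and 1 was lower. Vtn encodes vitronectin, which stabilises the plasminogen activator inhibitor PAI-1. It ran from 373.9 to 777.8 in transgenic and from 124.8 to 290.1 in FVB hearts, a log2 difference of 1.37 (SE 0.20, limma adjusted p = 6.16e-05). Anxa2 and S100a10, whose products form a cell-surface complex that binds plasminogen and its tissue-type activator, were higher by 0.87 and 0.54 (limma adjusted p = 0.000150 and 0.00430), and S100a10 was not called without the 3 doubted arrays (0.36, limma adjusted p = 0.122). Serpinf2, which encodes alpha-2-antiplasmin, differed by -1.29 (limma adjusted p = 0.0120), a value that rests on the array that stood apart, at 2804. Without it the difference was -0.57 (limma adjusted p = 0.0910). F2r, the main receptor for thrombin on many cells, ran from 4065 to 5137.7 in transgenic and from 1471.8 to 2743.2 in FVB hearts, a log2 difference of 1.16 (SE 0.13, limma adjusted p = 3.14e-06).

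Serping1 acts on C1r and C1s, and all 4 tested genes of the C1 complex were higher in the same hearts. C1qa rose by 1.59, C1qb by 1.59 and C1qc by 1.32, the 3 chains of the recognition unit, and C1ra, which encodes a C1r protease, by 1.47 (limma adjusted p from 6.02e-07 to 1.27e-05). C1qa ran from 4643.1 to 5709.4 in transgenic and from 1340.2 to 2140.3 in FVB hearts. C1q is made largely by macrophages. Most macrophage markers were higher in the same hearts as given above, and their part in the C1 differences was not tested.

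**Figure D3:**
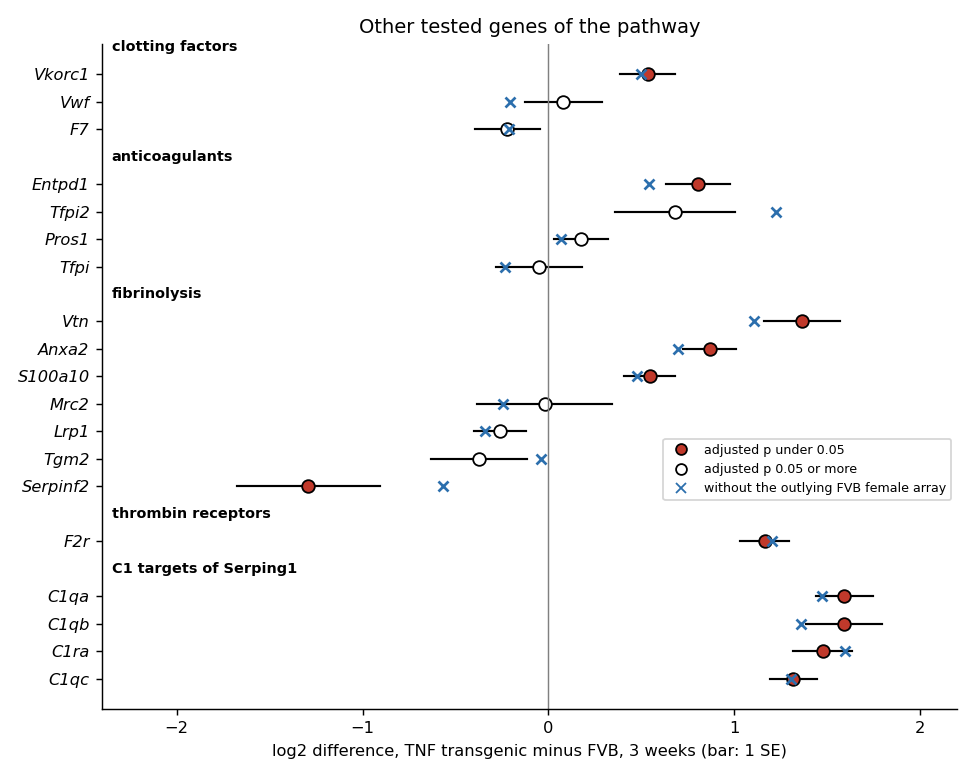
Log2 difference of the 19 tested pathway genes that are not among the members, TNF transgenic minus FVB hearts of 3 weeks (horizontal axis, bars of 1 SE), grouped by list. Filled points have an adjusted p under 0.05 and crosses give the value without the FVB array that stood apart, which moves Serpinf2 to -0.57 and Tfpi2 to 1.22.

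Fewer members were called between ages. In transgenic males, 13-week hearts were compared with 3-week hearts, and 0 of 7 members were called by limma, where 0.523% of probe sets were (0.349% higher and 0.174% lower). At an unadjusted p under 0.05 there were 2 members (F10 and F3) and 642 probe sets. F10 was 175.9, 142.7 and 144.5 at 13 weeks, against 226.3, 264.5 and 310.8 at 3 weeks, with every older heart below every younger one. Its log2 difference was -0.79 (SE 0.24, limma adjusted p = 0.214). F3 was 345.7, 276.5 and 195.7 at 13 weeks, against 174.3, 193.3 and 165.1 at 3 weeks, all higher, with a log2 difference of 0.58 (limma adjusted p = 0.463). Procr also did not overlap, at 487.7, 415.3 and 446.2 at 13 weeks, against 497.6, 583.3 and 533.6 at 3 weeks, a log2 difference of -0.26 (limma adjusted p = 0.835). Groups of 3 did not overlap in 7.55% of probe sets in the higher and 8.22% in the lower direction. The intervals of the 7 differences reached from -1.29 to 1.09, so changes of that size were not excluded.

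In transgenic females, F10 was the member called between 40 and 3 weeks. It was 66.2, 78.9 and 99.8 at 40 weeks, against 307.4, 239.9 and 185.6 at 3 weeks. No array overlapped. F10 was 2.97-fold lower, a log2 difference of -1.57 (SE 0.24, limma adjusted p = 0.00246), where 0.671% of probe sets were called (0.376% higher and 0.295% lower). The 40-week values all lay above 4 of the 5 FVB arrays of 3 weeks, and 2 of them (66.2 and 78.9) did not exceed the FVB array that stood apart (78.9). The second F10 probe set read 16.6, 15.5 and 70.5 at 40 weeks, against 160, 88.1 and 53.9 at 3 weeks, and its groups overlapped. With no filter on dim probe sets the F10 difference was also called (-1.57, limma adjusted p = 0.00853). The 3' to 5' ratio of Actb averaged 1.58 ± 0.19 at 40 weeks and 1.33 ± 0.10 at 3 weeks in these females (SD, n = 3 each). Its part in the F10 difference was not tested.

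F3 and Plaur had lower signals on every 40-week array than on any 3-week array of the same sex, and neither passed the test. F3 was 157.6, 125.6 and 145.1 at 40 weeks, against 185.1, 210.6 and 285 at 3 weeks, a log2 difference of -0.65 (limma adjusted p = 0.359). Plaur was 138, 83.9 and 97.5 at 40 weeks, against 205.8, 152.8 and 157.6 at 3 weeks, a log2 difference of -0.71 (limma adjusted p = 0.484). With arrays weighted by quality both were called (limma adjusted p = 0.00605 for F3 and 0.0129 for Plaur), in a fit that called 10.8% of all probe sets. Groups did not overlap in 7.55% of probe sets in the lower and 9.49% in the higher direction. Procr (-0.33), Plat (0.30), Serping1 (0.28) and Thbd (-0.04) did not pass. Beside these, the smooth muscle markers summed to 4396 to 5790 at 40 weeks and 7210 to 8651 at 3 weeks in transgenic females, with no overlap, and Acta2, 1 of the 3 tested, was lower (-0.93, limma adjusted p = 0.0337). No other marker list had a member called between these ages: of 8 macrophage markers 0 were called, with sums of 20200 to 28559 at 40 weeks and 22802 to 24489 at 3 weeks. The part of these markers in the F10 difference was not tested.

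**Figure D4:**
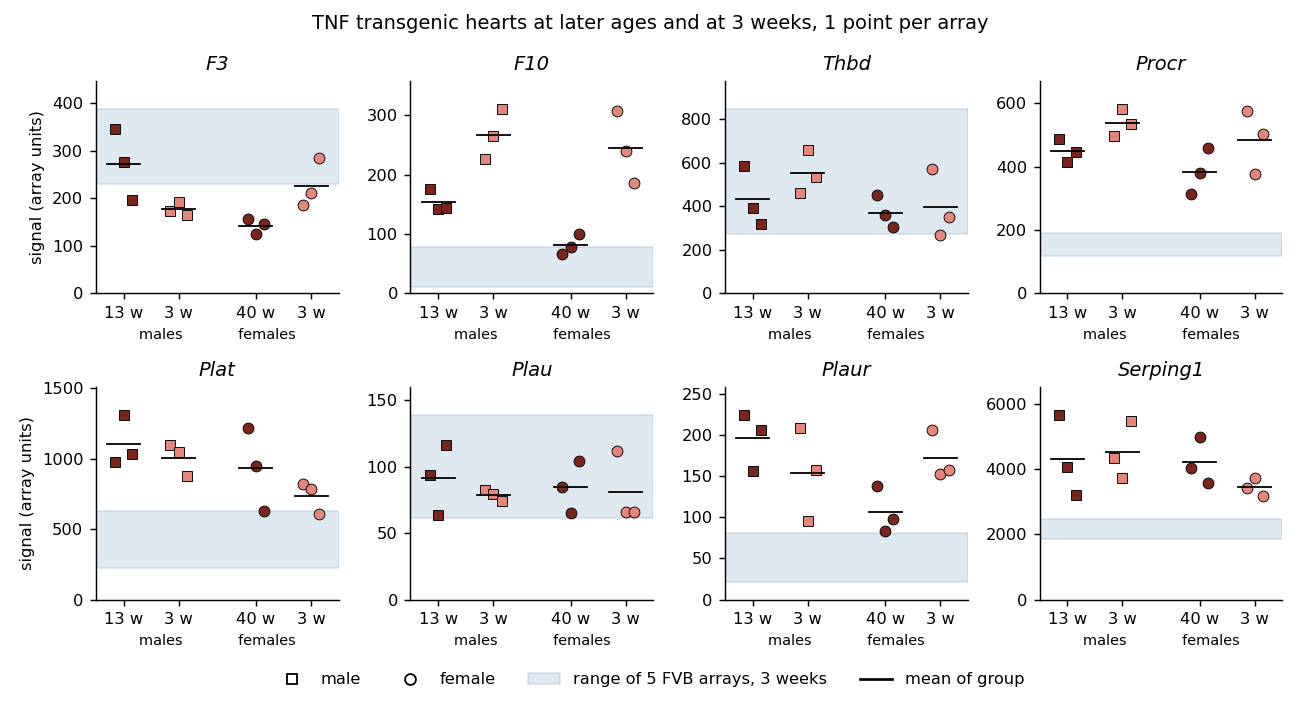
Signal of the 8 members on each transgenic array (linear axis from 0, array units), with 13 weeks left of 3 weeks in males (squares), 40 weeks left of 3 weeks in females (circles), lines at the group means and a band for the range of the 5 FVB arrays of 3 weeks. F10 at 40 weeks (66.2 to 99.8) lies below its 3-week values (185.6 to 307.4). Procr, Serping1, Plat and Plaur lie above the FVB band at both later ages. The margin at 40 weeks is narrow for Plat (629.3 against 625.3) and Plaur (83.9 against 81.4).

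The change at 40 weeks in females was set against the change at 13 weeks in males, with age and sex confounded in that difference. None of 7 members and none of 7453 probe sets were called by limma (0 each), and 214 probe sets had an unadjusted p under 0.05, among them F3 (-1.23), Plaur (-1.11) and F10 (-0.79), each with a limma adjusted p over 0.99. The F3 arrays lay wholly above those of 3 weeks at 13 weeks and wholly below them at 40 weeks, each within its sex.

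The order of group means differed by gene. For F10 the groups ran, from high to low, transgenic males of 3 weeks (267 ± 42.3), transgenic females of 3 weeks (244 ± 61.0), transgenic males of 13 weeks (154 ± 18.7), transgenic females of 40 weeks (81.6 ± 16.97), FVB females (48.0 ± 43.8) and FVB males (23.3 ± 13.4), as means ± SD with n = 3 except n = 2 for FVB females. The 3-week transgenic sexes overlapped each other, the 40-week group overlapped FVB females, and FVB females overlapped FVB males. The 13-week group overlapped neither of its neighbours. For Procr the 4 transgenic groups (385 ± 73.2 to 538 ± 43.0) each overlapped their neighbour, and all lay above FVB males (170 ± 21.8) and FVB females (128 ± 13.4). Plat was highest in transgenic males of 13 weeks (1105 ± 179) and lowest in FVB females (405 ± 258), with every neighbouring pair overlapping. The 13-week and 40-week arrays of Plat and of Plaur all lay above every FVB array. Serping1 had all 4 transgenic groups (3437 ± 278 to 4513 ± 893) above both FVB groups (2164 ± 75.7 in females and 2098 ± 334 in males). F3 was lowest in transgenic females of 40 weeks (143 ± 16.1), whose highest array at 157.6 lay below all arrays of the other groups. These levels at later ages have no FVB hearts of their age, so age and transgene cannot be told apart in them.

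As a description of likeness, the 3 genes with the highest Pearson correlation to each member over the 17 arrays were listed among 5693 genes, with all arrays sharing the genotype difference. F10 was most like Hp (0.97), Acod1 (0.95) and Cst7 (0.94), and Procr was most like Lilr4b, Apbb1ip and Spg21 (0.98 each). Serping1 was most like Rassf2 (0.94), Serpina3n (0.91) and Coro1b (0.91), and Plat was most like Ywhaq (0.94), Plekho1 (0.94) and Bop1 (0.92). Plaur was most like Cyp4v3 (0.88), Slc3a2 (0.87) and Sh3bp2 (0.87). Lower values were found for Thbd (Smpdl3a, Lrrc58 and Cul3, 0.86 each), F3 (Pomgnt1 0.86, Adk 0.78, Timp3 0.76) and Plau (Ccdc186 0.77, Mageb3 0.71, Tspo2 0.71).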

How the data were processed

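Total RNA of mouse hearts had been hybridised to Affymetrix U74Av2 arrays, per the labels. The authors deposited 1 linear intensity per probe set and array. Their software and background method were not given in the sources used here, and their trimmed means of 499.2 to 499.9 show a common scale, so no further scaling was applied. The labels do not say that samples came from separate animals, so each p-value reflects only sample-to-sample spread, possibly technical.

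Of 18 columns, 2 identical ones were counted once, leaving 17 arrays in 6 groups taken from the titles. Values below the 25th percentile (44.9) were set to it and taken as log2, 66 control probe sets were left out, and the brightest 60% were tested with limma 3.58.1 in R 4.3.3 (lmFit, eBayes, two-sided, a mean per group, degrees of freedom 11 residual, 4.89 prior). Adjusted p-values are Benjamini-Hochberg over 7453 probe sets, called at 0.05. The effect at 3 weeks averages both sexes. Untested members had an exact permutation test. A gene is represented by its brightest probe set, and 10833 probe sets had 1 symbol, 396 several and 1193 none. The fit was tested on simulated data.

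Named genes are the members, called genes of the pathway lists, and the 3 most like each member. Members, lists, motifs and tests were chosen with earlier results of these data known. Motifs were searched in RefSeq windows (5 of 9 members had one, and F13a1's is not shown). Replicate numbers were not used to pair samples in the main fit. Of 40 same-numbered pairs, the correlation of deviations ran from -0.34 to 0.47 (median 0.05) and 16 were over 0.1. Of 80 pairs with different numbers it ran from -0.38 to 0.33 (median 0.01) and 22 were over 0.1. A structure shared by replicate number is therefore not excluded. Alternatives covered scaling, floor, filter, log offset, variance model, array weights, groups fitted, replicate block, probe set averaging and each array left out.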

Additional observations from a re-analysis of the deposited data

Results flagged for a closer look

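In 20 groups of 4 to 10 arrays looked at, 5 had an array whose gap to its nearest neighbour was large for the range of the group (Dixon's ratio at the 95% level), where chance flags about 1 in 20. In FVB hearts of 3 weeks 4 of the 5 came from the female array that stood apart. It was the highest for F10 (78.9, ratio 1) and for the second F10 probe set (127, ratio 1), with the other 4 arrays at the floor. A ratio of 1 is fixed there, because arrays set to the floor have no spread. These 2 ratios therefore do not measure how far that array lay from the others. The rate of 1 in 20 does not apply to them, and flags that share 1 array are not independent. It was the lowest for Thbd (274.4, ratio 0.853) and for Plat (223, ratio 0.852). Among transgenic hearts of 3 weeks, female replicate 2 was the lowest for Procr (376.7, ratio 0.637).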

How the results depend on the processing

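Across 30 alternatives no member's called difference changed direction. At 3 weeks the count of members called was 6, fell to 3 with the brightest 40% of probe sets (4 members tested) and ranged from 4 to 7 with each array left out. In females it was 5, and 3 with no filter, with the brightest 40%, with only the groups compared, with the replicate block and without the 3 doubted FVB arrays, 2 with array weights and 1 to 5 with an array left out (1 without transgenic female replicate 1, where F10 and Plaur were not tested, and 3 without the FVB array that stood apart, transgenic female replicate 2 or male replicate 1). In males it was 5, and 3 with the brightest 40% and without the 3 doubted arrays, and 3 to 6 with an array left out (3 without transgenic female replicate 1 or any 1 of the 3 transgenic males of 3 weeks). At 40 weeks it was 1, and 0 with the brightest 40% or the mean over probe sets, 3 with array weights and 0 to 1 with an array left out. F10 had dropped below the filter wherever that count was 0, which happened without transgenic female replicate 1, male replicate 2 or male replicate 3 of 3 weeks. The causes of the other shifts were not tested. The count was 0 throughout for the sex difference, for 13 weeks and for the difference between age changes. The replicate block changed no other count by over 1.5 times. Depth is limited by signal: F10 and Plaur sit near the floor in FVB hearts.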

Other observations

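None of the 19 tested pathway genes outside the members was called between ages in transgenic hearts by limma. F2r averaged 4672 ± 656 at 13 weeks against 4501 ± 551 at 3 weeks in transgenic males, and 4450 ± 551 at 40 weeks against 4302 ± 285 at 3 weeks in transgenic females (SD, n = 3 each). C1qa averaged 8196 ± 622 at 40 weeks against 5072 ± 444 at 3 weeks in females (log2 difference 0.69, limma adjusted p = 0.204). In males it averaged 6911 ± 1023 at 13 weeks against 5300 ± 526 at 3 weeks (0.38, limma adjusted p = 0.702). Its arrays did not overlap in either comparison, as 9.49% of probe sets did not in the higher direction at 40 weeks and 7.55% at 13 weeks. Lrp1, a clearance receptor for plasminogen activators bound to their inhibitors, differed by 0.56 between 40 and 3 weeks in females (limma adjusted p = 0.290).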
